A study of Rattus norvegicus with 11 samples.

Results

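The genes described here code for ribosomal proteins, in WBCs of rats with collagen-induced arthritis (CIA) and of normal healthy controls. A row of the deposited table counted as a ribosomal protein row when its gene name began with Rpl or Rps and a digit, was not an S6 kinase (Rps6k) gene, and averaged 1 FPKM or more across the 11 samples. FPKM gives the sequenced fragments of a gene relative to gene length and to the sample's total. These names stood on 91 of the 32623 rows, and 89 of them passed the FPKM minimum, 53 for the large (60S) and 36 for the small (40S) ribosomal subunit. The rows were thus chosen by name and by this mean, and no group was used. The rows nearest the minimum were Rpl10l (1.496 FPKM) inside it and Rpl30l1 (0.80 FPKM) outside it, and Rpl39l was listed at 0. The 89 rows carried 83 names and 83 Descriptions, since Rpl21 stood on 4 rows and Rpl32, Rpl7a and Rps27a on 2 rows each. Rps19bp1, which fits the names, codes for a protein that binds S19 and is not itself a part of the ribosome.

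The samples were peripheral leukocytes of male Wistar rats, taken after the red blood cells had been lysed. The Nampt++ group and the Nampt+ group held the same 4 CIA rats, 7 weeks old at the start, immunised with type II collagen in incomplete Freund's adjuvant (IFA-CII) and boosted on day 7. Blood was taken on about day 8 for the Nampt++ samples, when Nampt expression was high in the authors' PCR, and on about day 14 for the Nampt+ samples, when it had declined. The 3 controls were normal rats without CIA, named normal 1 to 3. Status and day of sampling cannot be told apart, and the groups were assigned by PCR in the same cells. The deposited extraction protocol mentions retinas, against the source label and the paper, which give blood leukocytes. Leukocyte genes such as S100a8 (neutrophils), Csf1r (monocytes) and Cd3e (T cells) had FPKM values above 0 in all 11 samples, which alone cannot settle the source. In whole WBCs, fewer cells of a type and less RNA per cell cannot be told apart.

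A ribosome carries nearly all of these proteins in equal numbers, and their mRNAs are among the most abundant of a growing cell. Most begin with a run of pyrimidines (C or T in the gene), the terminal oligopyrimidine (TOP) motif, through which mTOR and the RNA-binding protein LARP1 set how much of the mRNA is translated. In blood, resting lymphocytes carry much ribosomal protein mRNA, and mature neutrophils carry little. Mammalian genomes also hold many intronless copies of these genes, most of them retropseudogenes, and reads from near-identical copies are hard to assign to 1 of them.

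Start regions were taken from RefSeq (GRCr8) for the most abundant ribosomal protein genes with an entry and for Rpl9, Rpl17, Rps27l and Rpl7l1, which the results describe. The Rpl9 window is that of the RefSeq gene on chromosome 14, whose neighbours match those of the deposited row LOC100360449, and not of the row named Rpl9 on chromosome 3. Each window runs 5′ to 3′ from 60 bases before the start of the transcript to 25 bases from it, and capitals mark the unbroken run of C and T that holds the start base.
Rps23: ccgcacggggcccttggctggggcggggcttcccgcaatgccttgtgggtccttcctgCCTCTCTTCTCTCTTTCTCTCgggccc
Rps15: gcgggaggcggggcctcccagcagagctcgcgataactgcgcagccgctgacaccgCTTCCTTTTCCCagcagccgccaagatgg
Rps27: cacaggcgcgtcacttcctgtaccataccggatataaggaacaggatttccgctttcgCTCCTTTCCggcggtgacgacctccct
Rpl13: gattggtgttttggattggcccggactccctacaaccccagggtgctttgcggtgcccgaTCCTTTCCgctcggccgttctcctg
Rpl41: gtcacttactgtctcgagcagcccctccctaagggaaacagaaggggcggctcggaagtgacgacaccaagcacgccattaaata
Rpl9: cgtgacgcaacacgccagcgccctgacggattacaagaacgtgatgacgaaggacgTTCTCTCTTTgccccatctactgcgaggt
Rpl17: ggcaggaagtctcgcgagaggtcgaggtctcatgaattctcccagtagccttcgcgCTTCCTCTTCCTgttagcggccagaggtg
Rps27l: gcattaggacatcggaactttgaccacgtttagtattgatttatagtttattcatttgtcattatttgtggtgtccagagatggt
Rpl7l1: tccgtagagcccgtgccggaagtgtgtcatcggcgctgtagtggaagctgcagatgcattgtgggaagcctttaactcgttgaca
The windows lie at chr2:23814457-23814541 on the plus strand for Rps23, at chr7:10068091-10068175 on the minus strand for Rps15, at chr2:177964582-177964666 on the minus strand for Rps27, at chr19:68062454-68062538 on the plus strand for Rpl13 and at chr7:1563473-1563557 on the minus strand for Rpl41. Those of the other genes lie at chr14:43247530-43247614 on the plus strand for Rpl9, at chr18:70856216-70856300 on the plus strand for Rpl17, at chr8:76443598-76443682 on the plus strand for Rps27l and at chr9:21695658-21695742 on the plus strand for Rpl7l1. The run of C and T was 21 bases long in Rps23, 12 in Rps15, 9 in Rps27, 8 in Rpl13, 10 in Rpl9 and 12 in Rpl17. In Rpl41 and in the related genes Rps27l and Rpl7l1 the annotated start base was neither C nor T. RefSeq gave 63 windows of 300 bases for the names of 67 of the 89 rows. A run of at least 8 bases over the start was present in 29 of the 63 windows (46.0%), against 4.43% of all 33469 windows in the table. CTTCCGG, searched on both strands like the motifs that follow, stood in 28.6% of the ribosomal protein windows and in 8.75% of all windows. CTTTCC stood in 54.0% against 26.4%, GGGCGG in 55.6% against 33.1%, and TATAAA in 11.1% against 14.2%. These are matches of letters and say nothing of binding.

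Ribosomal protein rows were abundant in these WBCs. The median row had a mean of 782 FPKM over the 11 samples, 33 rows exceeded 1000 FPKM and 76 exceeded 100 FPKM. Among the highest means were those of Rpl41 (2716 FPKM), Rps15 (2656 FPKM), Rps27 (2617 FPKM), Rpl13 (2114 FPKM) and Rps23 (2025 FPKM). Rpl41 codes for the smallest ribosomal protein, and the others for S15, S27, L13 and S23. Rpl41 measured 2795 ± 457 FPKM in Nampt++ samples (SD, n = 4), 2546 ± 494 FPKM in Nampt+ samples (SD, n = 4) and 2836 ± 718 FPKM in controls (SD, n = 3). Rps15 stood at 2808 ± 330, 2374 ± 618 and 2829 ± 947 FPKM in the same order, and Rps27 at 2714 ± 367, 2453 ± 716 and 2709 ± 1249 FPKM. The spread inside the controls thus exceeded the differences between the groups for Rpl41, Rps15 and Rps27.

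Total counts ranged from 65340027 to 85819418 per sample, and the ribosomal protein rows took 3.07% to 8.73% of them. That share was 5.18%, 5.75%, 5.55% and 7.10% in Nampt++ rats 1 to 4, 6.01%, 3.07%, 7.30% and 5.80% in the Nampt+ samples of the same rats, and 5.55%, 4.15% and 8.73% in normal 1 to 3. Nampt+ rat 2 held the lowest share and normal 3 the highest, and the 3 groups overlapped. Group means were 5.89 ± 0.84% (SD, n = 4), 5.55 ± 1.78% (SD, n = 4) and 6.14 ± 2.35% (SD, n = 3) for Nampt++, Nampt+ and control samples. Haemoglobin mRNA took 6.84% to 42.8% of the counts, with the highest share in Nampt+ rat 2. Of the counts without the haemoglobin genes, the ribosomal protein rows took 5.56%, 9.16%, 6.95% and 7.70% in Nampt++ rats 1 to 4, 8.11%, 5.37%, 8.95% and 6.81% in Nampt+ samples, and 7.94%, 5.996% and 10.4% in controls. On that scale the means were 7.34 ± 1.503%, 7.31 ± 1.56% and 8.12 ± 2.22%, and the groups overlapped again.

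Neutrophil markers stood high where the share was low. Summed FPKM of 10 neutrophil markers, per 1000000 FPKM without haemoglobin genes, was lowest in normal 3 (3537), in Nampt++ rat 2 (6345), in Nampt+ rat 1 (7007) and in Nampt+ rat 3 (9468), the 4 samples with the highest ribosomal protein shares of non-haemoglobin counts. It was highest in Nampt++ rat 1 (65349) and in Nampt+ rat 2 (37573), the 2 samples with the lowest shares. Neutrophil markers were not alone in following the share. On the same scale, B cell markers were highest in normal 3 (1115), Nampt++ rat 2 (623) and Nampt+ rat 1 (605). Monocyte markers were lowest in normal 3 (7163) and Nampt+ rat 1 (10294). At the other end, B cell markers were lowest in normal 2 (283) and monocyte markers highest in Nampt+ rat 4 (25027), neither of them among the 2 lowest shares. NK cell markers were lowest in the 2 samples with the lowest shares, Nampt++ rat 1 (69.3) and Nampt+ rat 2 (124). T cell markers were also lowest in Nampt+ rat 2 (763). Both lists were highest in normal 1 (789 for NK cells and 1995 for T cells), which was not among the 4 highest shares. Of the 9 neutrophil markers tested, 0 had an unadjusted p under 0.05 in edgeR in any of the 3 comparisons, and their median log2 fold changes were -0.28 for Nampt+ against Nampt++, 0.68 for Nampt++ against controls and 0.44 for Nampt+ against controls. The 5 tested NK cell markers, with medians of 0.14, -0.76 and -0.73 in the same order, the 5 B cell markers (0.27, -0.43 and -0.22), the 6 monocyte markers (-0.41, 0.49 and -0.02) and the 7 erythroid markers (0.76, -0.38 and 0.30) gave 0 as well. Cd5, 1 of 8 T cell markers, was higher in Nampt+ than in Nampt++ samples (log2 fold change of 0.71, unadjusted p = 0.0028 in edgeR), and Ppbp, 1 of 6 platelet markers, was lower in Nampt++ samples than in controls (-1.09, unadjusted p = 0.0282 in edgeR). Medians of these 2 lists were 0.18, -0.13 and -0.01 for T cells and 0.13, 0.02 and 0.16 for platelets. The part of cell composition in the share was not tested.

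**Figure D1:**
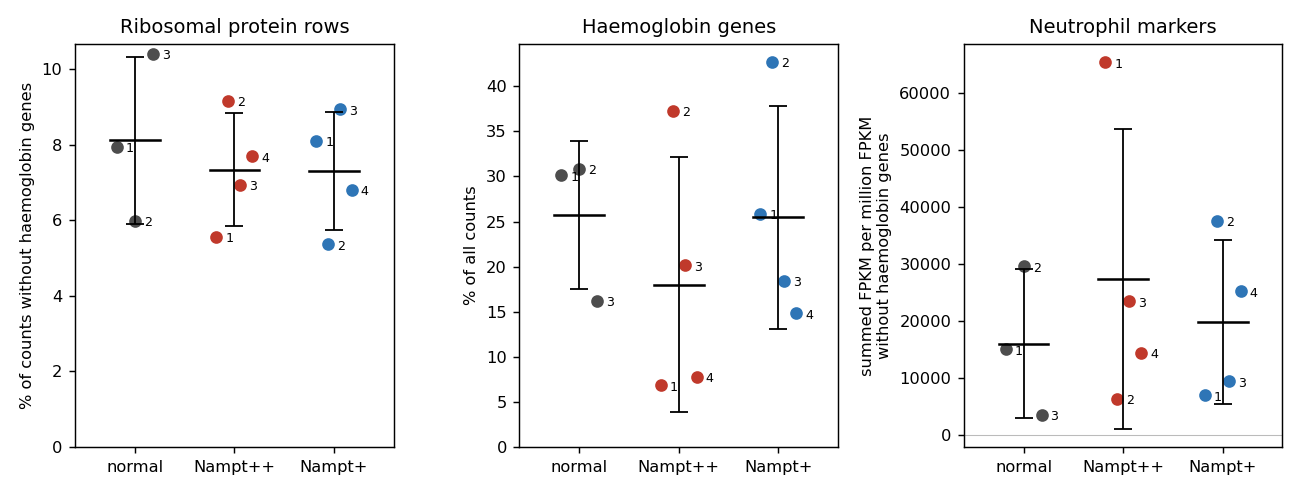
Ribosomal protein rows as a percentage of the counts without haemoglobin genes (left), haemoglobin genes as a percentage of all counts (middle) and summed FPKM of 10 neutrophil markers per 1000000 FPKM without haemoglobin genes (right). Points are samples with their rat or control number, thick lines are group means and bars are SDs (n = 3 normal, 4 Nampt++, 4 Nampt+). Normal 3 has the highest ribosomal protein share (10.4%) with the lowest marker sum, and Nampt++ rat 1 and Nampt+ rat 2 have the lowest shares (5.56% and 5.37%) with the highest marker sums.

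Most ribosomal protein rows kept to a common level within a sample, and part of that level was shared with all genes. Over the 11 samples the median row had an SD of 0.42 on the log2(FPKM + 1) scale, the same as the median of all 11242 rows tested (0.42). After subtracting each sample's median ribosomal protein row, the median SD was 0.096, and 66 of the 89 rows stayed under 0.2. FPKM values carry no correction for the make-up of a library, and the median of all rows tested itself varied between samples, with an SD of 0.29, against 0.40 for the median ribosomal protein row. After subtracting each sample's median of all rows tested, the median SD was 0.21 for the 89 rows and 0.30 for all rows tested, and 36 of the 89 rows stayed under 0.2. Rpl26 was the steadiest against the other ribosomal protein rows, at 0.037, between 539 FPKM in Nampt+ rat 2 and 1551 FPKM in normal 3. Sums by subunit held only the 89 rows and left out abundant ribosomal protein rows under other names. Among those were LOC108350501 for S29 (mean of 4270 FPKM) and LOC100362027 for L30 (mean of 1684 FPKM). Within the 89 rows, the ratio of summed 60S to summed 40S FPKM was 1.24 ± 0.011 in Nampt++ samples, 1.27 ± 0.012 in Nampt+ samples and 1.27 ± 0.040 in controls. It was higher at Nampt+ status in 4 of 4 rats, by 0.025, 0.013, 0.018 and 0.035 in rats 1 to 4 and by 0.023 ± 0.0096 on average (SD, n = 4). A two-sided exact permutation within rats gave p = 0.125, the smallest p that 4 pairs allow, so it cannot decide whether the ratio changed. The part of each row not shared with the others exceeded an SD of 0.5 for 7 rows, which were Rpl35al1 (1.19), Rpl9 (1.00), one row of Rpl21 (0.92), Rps4y2 (0.80), Rpl35a (0.75), Rpl30 (0.70) and Rpl10l (0.56). All 7 of these rows span under 1000 bases of the genome, as do 21 of the 89 rows.

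These departing rows lay mostly away from the locus where RefSeq places the gene of that symbol. For each row, the 8 genes on either side in the table were compared with the 8 on either side of the RefSeq gene (GRCr8) of the same symbol, and a row with at least 2 shared names was taken as lying at that locus. By this measure 69 rows lay at the RefSeq locus, 18 did not, and 2 symbols were not in RefSeq. The measure can miss a locus. Rpl29 (chromosome 8, 100% of the L29 FPKM) shared 0 neighbours and Rps24 (chromosome 16, 93.0% of the S24 FPKM) shared 1. RefSeq places both genes on these same chromosomes. The median centred SD was 0.087 in the 69 rows and 0.26 in the 18 rows, and 5 of the 7 rows over 0.5 were among the 18. The 18 rows were also lower in FPKM (median 207 against 922) and shorter (median span 512.5 against 2875 bases), so the 3 properties cannot be told apart here. The genome build of the deposited coordinates is not given in the sources used here, and only gene order was compared.

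**Figure D2:**
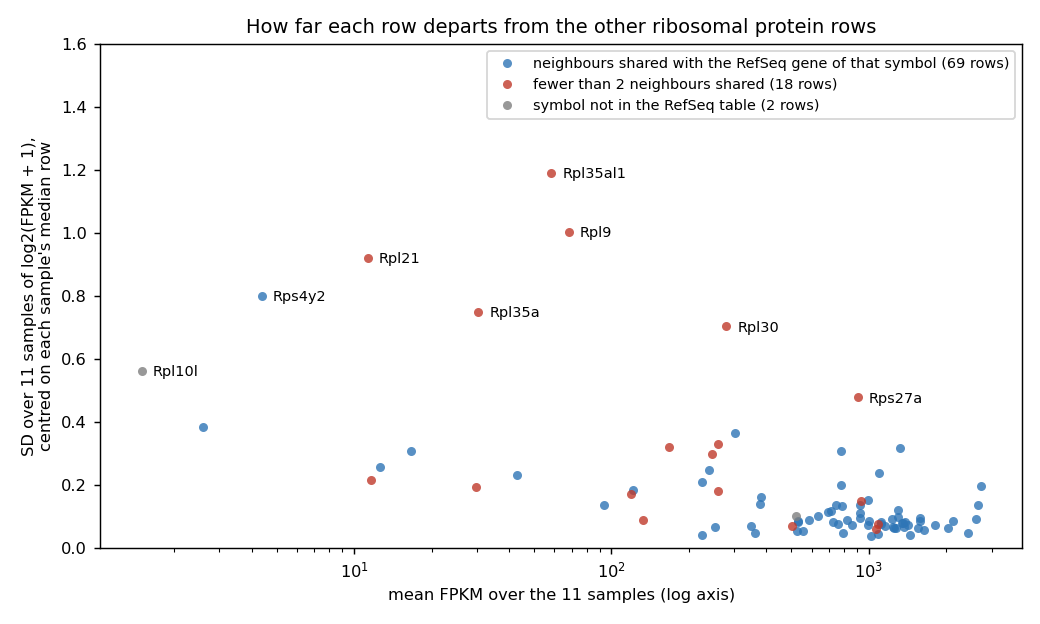
SD over the 11 samples of log2(FPKM + 1) of each ribosomal protein row after subtracting the sample's median row, against its mean FPKM on a log axis. Each point is 1 of 89 rows, coloured by whether at least 2 of its neighbours match those of the RefSeq gene with its symbol, and rows over 0.45 are named. Most rows lie under 0.2, and the named rows lie between 0.48 and 1.19.

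Ribosomal protein rows between Nampt+ and Nampt++ samples were compared to ask whether the drop of Nampt status in the same 4 rats went with a change in ribosomal protein mRNA. No row passed the study's rule of a ratio of mean FPKMs over 2 or under 0.5 with an unadjusted p under 0.05 in edgeR's quasi-likelihood test. In all, 71 of the 11242 rows tested passed that rule (0.632%), 0.32% of the tested rows in the lower direction. At an unadjusted p under 0.05 alone, 2 of the 89 rows passed, both lower in Nampt+ samples, against 2.27% of all rows in either direction and 0.925% in the lower one. In 0 of the 89 rows did the groups not overlap in FPKM, against 0.0978% of all rows higher and 0.311% lower. Neither edgeR, DESeq2 nor limma gave any of the 89 rows an adjusted p under 0.05. With edgeR 0 rows of the whole table had one, and with DESeq2 6 rows. The median log2 fold change of the 89 rows was -0.08, against a median of all rows that rounds to 0, and 74 of the 89 lay below 0, against 50% of all rows. That direction was not stable, and without Nampt++ rat 2 the median was 0.01. With the 4 rats as a replicate block the median was -0.08. For 40S rows the median was -0.10 and for 60S rows -0.07.

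The 2 rows that passed were Rps27l and Rpl7l1, both relatives of ribosomal protein genes rather than standard members. Rps27l codes for an S27-like protein that p53 induces, and Rpl7l1 for an L7-like protein that takes part in making the large subunit. Rps27l (chromosome 8, 72741155 to 72746090 in the deposited coordinates) measured 23.2, 15.1, 17.6 and 24.5 FPKM in Nampt++ rats 1 to 4 and 15.1, 7.64, 14.8 and 14.7 FPKM in the Nampt+ samples of the same rats. It was lower at Nampt+ status in 4 of 4 rats, but the groups overlapped, since the lowest Nampt++ value (rat 2) lay just under the highest Nampt+ value (rat 1). The log2 fold change was -0.56 ± 0.15 (SE), with an unadjusted p = 0.00454 and an adjusted p = 1.00 in edgeR, and with the rats as a replicate block the unadjusted p was 0.0207. Controls measured 16.5, 11.4 and 22.3 FPKM, across the range of both CIA groups. Rpl7l1 (chromosome 9, 16508799 to 16513120) measured 51.4, 44.5, 50.7 and 52.1 FPKM in Nampt++ samples and 35.4, 18.5, 53.2 and 40.03 FPKM in Nampt+ samples. It was lower in 3 of 4 rats, with rat 3 the exception. Its log2 fold change was -0.43 ± 0.15 (SE), with an unadjusted p = 0.0187 in edgeR, and without Nampt+ rat 1 this was 0.0521. On log2(FPKM + 1) with limma neither row passed, at unadjusted p values of 0.0708 and 0.138. Rps27 itself had a log2 fold change of -0.10 ± 0.18 (SE), and Rpl7 measured 246 ± 29.5 FPKM in Nampt++ samples (SD, n = 4) and 243 ± 82.7 FPKM in Nampt+ samples (SD, n = 4).

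Nampt++ samples were compared with controls to ask how ribosomal protein mRNA stood at the early status of CIA. One row, Rpl30, passed the study's rule, against 0.676% of all rows tested in either direction and 0.356% in the lower one, and it was also the only 1 of the 89 with an unadjusted p under 0.05, against 1.56% of all rows in either direction and 0.907% in the lower one. With edgeR 0 rows of the table had an adjusted p under 0.05, with DESeq2 5 rows, and neither DESeq2 nor limma gave any among the 89. The median log2 fold change was -0.03, with 60 of the 89 rows below 0 and 49.7% of all rows below 0. It was 0.04 without Nampt++ rat 1 and 0.08 without normal 3. Groups did not overlap in FPKM for 1 row that was lower (Rpl30, against 0.454% of all rows) and for 1 that was higher (the Rps27a row on chromosome 5, against 0.64% of all rows).

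Nampt+ samples were compared with the same controls. Rpl30 and Rpl9 passed the rule, against 0.507% of all rows in either direction and 0.285% in the lower one, both lower in Nampt+ samples, and no other of the 89 rows had an unadjusted p under 0.05, against 0.89% of all rows in either direction and 0.516% in the lower one. In both the groups did not overlap in FPKM, against 0.276% of all rows lower and 0.169% higher. The adjusted p values of both were 1.00 in edgeR, which gave 0 rows of the table an adjusted p under 0.05, while DESeq2 gave 4, none of them among the 89, and limma none among the 89. The median log2 fold change was -0.11, with 81 of the 89 rows below 0 and 50.7% of all rows below 0, and it was 0.01 without normal 3. Both comparisons with controls share the same 3 control samples, so their calls are not independent of each other.

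**Figure D3:**
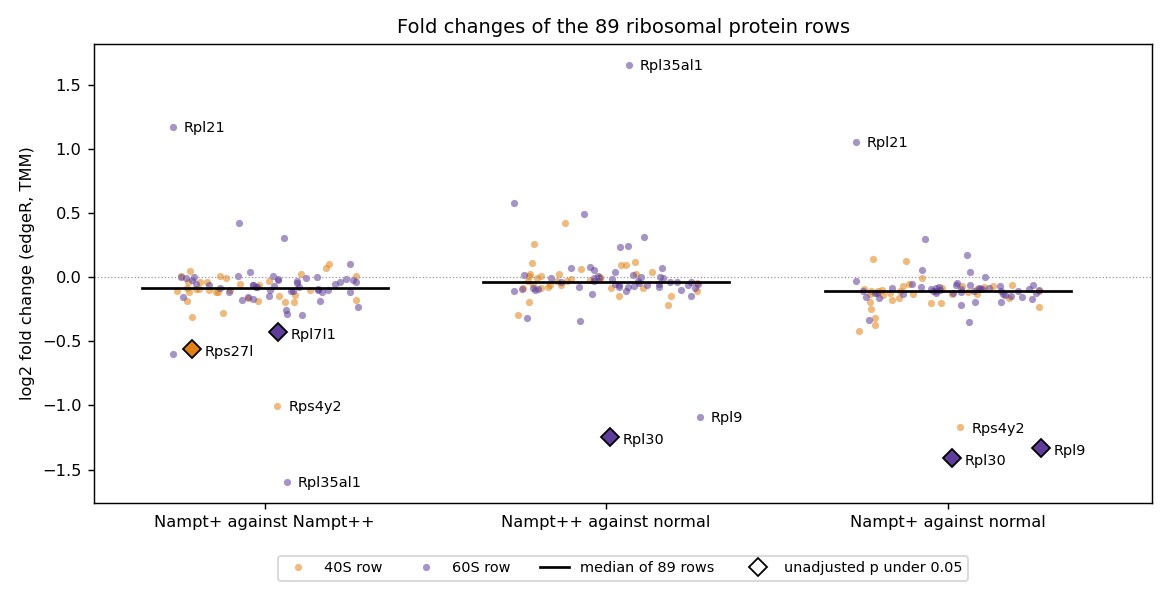
Log2 fold changes of the 89 ribosomal protein rows in the 3 comparisons (edgeR with TMM normalization). Points are rows, coloured by subunit, diamonds mark rows with an unadjusted p under 0.05, black lines are medians, and other rows beyond 0.9 are named. The medians are -0.08, -0.03 and -0.11, and 80 of the 89 rows lie within 0.3 of 0 in each comparison.

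Rpl30 codes for L30 of the large subunit, a protein that in yeast controls the splicing of its own transcript. The row named Rpl30 (chromosome 10, 38024477 to 38024937, a span of 461 bases) measured 182, 208, 206 and 274.5 FPKM in Nampt++ rats 1 to 4, 190, 127, 237 and 198 FPKM in Nampt+ samples, and 647, 474 and 331 FPKM in normal 1 to 3. All CIA samples lay below all controls, and normal 1 and 2 stood well above normal 3. The log2 fold change was -1.25 ± 0.33 (SE) in Nampt++ samples against controls (unadjusted p = 0.00513 in edgeR) and -1.41 ± 0.31 (SE) in Nampt+ samples against controls (unadjusted p = 0.00213). Between Nampt+ and Nampt++ samples it was -0.15 ± 0.16 (SE). Without normal 1 the first of these was -1.02 (unadjusted p = 0.024 in edgeR), and the ratio of mean FPKM rose above 0.5, so that Rpl30 was not called in Nampt++ samples. An exact permutation of log2(FPKM + 1) gave p = 0.0571 for either comparison with controls, two-sided, which is the smallest p that 4 against 3 samples allow, and 0.257 after Benjamini-Hochberg adjustment over the 18 tests of single rows.

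That row held a small part of the L30 reads. Another row whose Description names L30, LOC100362027 on chromosome 7 (73213581 to 73216251), measured 1645, 1732, 1735 and 2301 FPKM in Nampt++ samples, 1719, 962, 1969 and 1622 FPKM in Nampt+ samples, and 1216, 924 and 2700 FPKM in controls. It shared 7 neighbours with the RefSeq gene Rpl30, among them Pop1, Matn2 and Laptm4b, while the row named Rpl30 shared 0. As a share of all L30 FPKM, the row named Rpl30 held 9.94%, 10.7%, 10.6% and 10.6% in Nampt++ samples, 9.91%, 11.7%, 10.7% and 10.8% in Nampt+ samples, and 34.7%, 33.8% and 10.9% in controls. Normal 1 and 2 thus stood apart from the other 9 samples, and normal 3 lay beside the CIA rats. Summed over the rows naming L30, FPKM was 2076 ± 341 in Nampt++ samples, 1760 ± 475 in Nampt+ samples and 2102 ± 844 in controls. The difference in log2 sums was 0.04 for Nampt++ samples against controls (p = 0.914, two-sided exact permutation) and -0.23 for Nampt+ samples against controls (p = 0.514, two-sided exact permutation), both 0.98 after adjustment over 45 such tests. In edgeR on summed counts, the log2 fold changes of L30 were -0.06 and -0.26, with unadjusted p values of 0.794 and 0.24.

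Rpl9 codes for L9 of the large subunit, and it too stood on several rows. The row named Rpl9 (chromosome 3, 4282236 to 4282814, a span of 579 bases) measured 17.4, 19.6, 107 and 80.9 FPKM in Nampt++ samples, 48.5, 28.3, 77.3 and 29.8 FPKM in Nampt+ samples, and 149, 95.5 and 96.1 FPKM in controls. Nampt+ samples all lay below the controls, and Nampt++ samples overlapped them through rat 3. The log2 fold change against controls was -1.33 ± 0.34 (SE) in Nampt+ samples (unadjusted p = 0.00459 in edgeR) and -1.09 ± 0.64 (SE) in Nampt++ samples (unadjusted p = 0.129). Without Nampt++ rat 3 the latter was -1.70 (unadjusted p = 0.020 in edgeR) and the row was called. The Descriptions of 4 further rows named L9, on chromosomes 14, 1, 7 and X. LOC100360449 on chromosome 14 shared 7 neighbours with the RefSeq gene Rpl9, among them Ugdh, Lias and Rfc1, and held 40.7% to 60.02% of the summed L9 FPKM, while the row named Rpl9 held 2.87% to 19.3%. The 2 highest shares of the row named Rpl9 were again those of normal 1 (19.3%) and normal 2 (19.0%), with 8.58% in normal 3 and 15.1% in Nampt++ rat 3. The L9 sum was 735 ± 144 FPKM in Nampt++ samples, 668 ± 191 FPKM in Nampt+ samples and 799 ± 310 FPKM in controls. The log2 sums of Nampt+ samples differed from controls by -0.24 (p = 0.571, two-sided exact permutation). With the rows of a protein summed, no ribosomal protein passed the study's rule in any of the 3 comparisons, a setting chosen after seeing the data.

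**Figure D4:**
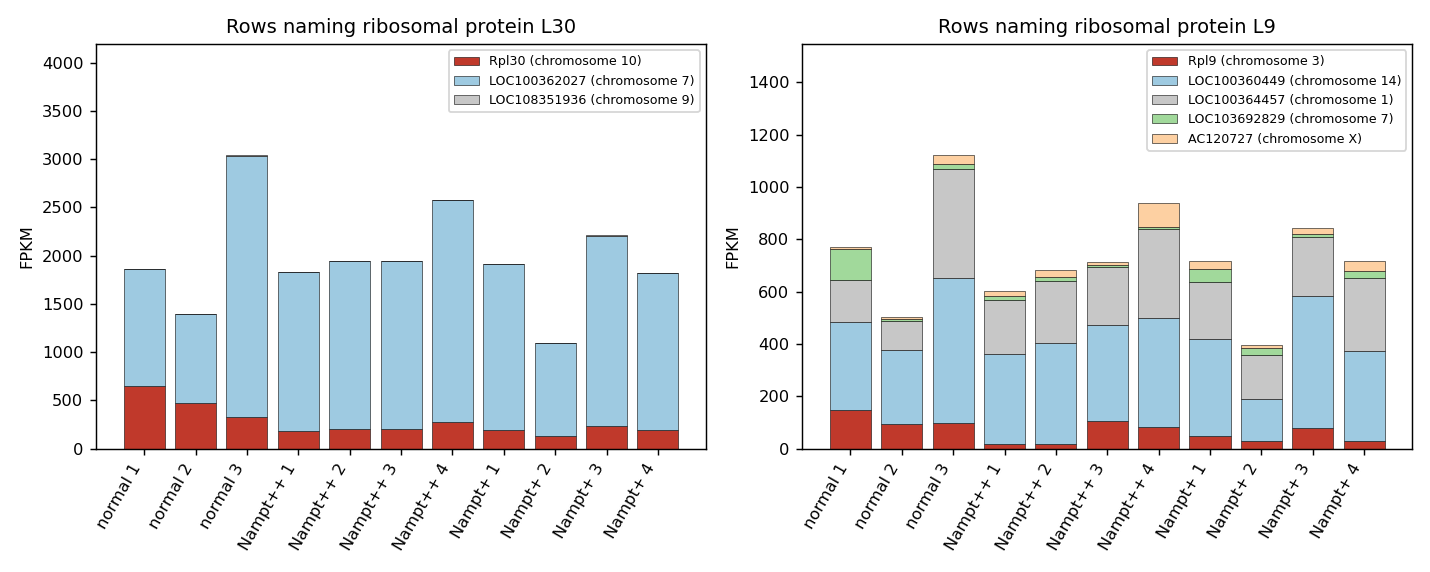
FPKM of every row naming ribosomal protein L30 (left) and L9 (right) in each of the 11 samples, stacked, for rows with a mean of at least 1 FPKM. Red is the row named Rpl30 or Rpl9. The red part is tallest in normal 1 (647 FPKM for Rpl30 and 149 FPKM for Rpl9), while the whole bar is tallest in normal 3.

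Rpl15 codes for L15, and was 1 of the steady rows, with a centred SD of 0.083. Its row (chromosome 15, 8189253 to 8192152) lay at the RefSeq locus beside Nkiras1, Nr1d2 and Thrb. FPKM was 426, 547, 507 and 619 in Nampt++ samples, 591, 250, 676 and 547 in Nampt+ samples, and 519, 401 and 775 in controls. The groups overlapped, and within each group the samples stood in the order of their ribosomal protein share of counts. Log2 fold changes were -0.03 ± 0.21 (SE) for Nampt+ against Nampt++, -0.08 ± 0.23 (SE) for Nampt++ against controls and -0.12 ± 0.22 (SE) for Nampt+ against controls, with unadjusted p values of 0.906, 0.73 and 0.588 in edgeR. With the counts scaled to the ribosomal protein total, the first of these turned to 0.04.

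The split of FPKM between rows of 1 protein varied elsewhere too. The Rps27a row on chromosome 14, at the RefSeq locus, held 41.0% to 76.5% of the S27a FPKM, and a row of 545 bases on chromosome 5 held 23.2% to 58.6%. Rps27a codes for a fusion of ubiquitin and S27a. The chromosome 5 row measured 1138, 974, 1261 and 941 FPKM in Nampt++ samples against 931, 579 and 907 FPKM in controls, without overlap, at a log2 fold change of 0.42 ± 0.24 (SE) and an unadjusted p = 0.114 in edgeR. Its sum with the chromosome 14 row was 2347 ± 378 FPKM in Nampt++ samples, 1998 ± 559 FPKM in Nampt+ samples and 2381 ± 877 FPKM in controls. Summed over its 4 rows, Rpl21 measured 1435 ± 249, 1359 ± 349 and 1547 ± 499 FPKM in the same order. Rpl32 measured 1385 ± 161, 1302 ± 443 and 1453 ± 555 FPKM over 2 rows, and Rpl7a 499 ± 88.5, 561 ± 202 and 571 ± 269 FPKM over 2 rows. For these 4 sums and the 3 comparisons, two-sided exact permutation gave p values from 0.371 to 1, and all 12 were 1 after Benjamini-Hochberg adjustment. These permutations treated Nampt+ and Nampt++ samples as independent and did not use their pairing by rat. The Rpl32 row on chromosome 6 kept a steady 8.98% to 10.999% of its sum. Rpl35al1 and Rpl35a, rows of 401 bases each on chromosome 12, held 0.78% to 16.1% and 0.74% to 4.57% of the L35a FPKM, and the largest value of Rpl35al1, 256 FPKM in Nampt++ rat 3, stood beside 24.5, 87.5 and 25.4 FPKM in the other Nampt++ samples. Chosen after its values were seen, Rpl35al1 had a log2 fold change of 1.65 ± 0.98 (SE) in Nampt++ samples against controls, at an unadjusted p = 0.13 in edgeR, and of -1.59 ± 0.79 (SE) in Nampt+ against Nampt++ samples, at an unadjusted p = 0.075. DESeq2 called it in both comparisons, at 1.66 (unadjusted p = 0.0482) and -1.60 (unadjusted p = 0.0248). In edgeR it was called between Nampt+ and Nampt++ samples without Nampt++ rat 1 (-1.94, unadjusted p = 0.0301) or rat 4 (-1.94, unadjusted p = 0.0275). Without Nampt++ rat 3 the values were 0.56 against controls and -0.52 between Nampt+ and Nampt++ samples (unadjusted p = 0.499 and 0.423), and with the rats as a replicate block the latter was -0.92 (unadjusted p = 0.409).

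Further rows outside the name rule held ribosomal protein mRNA. The Description of 83 rows with other names, at a mean of at least 1 FPKM, named a ribosomal protein of these families, and they added 0.618% to 1.70% of the counts. The 4 proteins L37, S7, S13 and S26 stood only under such names. LOC108350501 (chromosome 6), which names S29 and shared 6 neighbours with the RefSeq gene Rps29, averaged 4270 FPKM and held 95.3% of the S29 FPKM, while the row named Rps29 averaged 29.7 FPKM. Counting for the table is not described in the sources used here, so how reads shared by near-identical copies were split between rows is uncertain.

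Shares of the ribosomal protein FPKM separated a few rows from controls, none with a test past adjustment. Dividing by the FPKM of the 89 rows removes the level these rows share, but not that of other genes. Centred on the median ribosomal protein row, the median SD was 0.096 for the 89 rows and 0.34 for all rows tested. The percentages of all rows without overlap given below are therefore no chance level for the 89. Per FPKM of the 89 rows, Rpl17 and Rpl36a were above all controls in Nampt++ samples (0.898% of all rows tested were), and Rpl27a, Rps19l2 and Rps2 were below them (1.36% of all rows). Rpl17 held 100% of the L17 FPKM and Rpl27a 95.2% of the L27a FPKM. The row named Rpl36a, on chromosome 18, shared 0 neighbours with the RefSeq gene and held 25.3% of the L36a FPKM. Rps19l2 held 39.6% of the S19 FPKM and Rps2 61.9% of the S2 FPKM. In Nampt+ samples Rpl17 was above all controls (1.41% of all rows), and Rpl36, Rpl9, Rps29 and Rps3a were below them (0.365% of all rows). The row named Rps29 held only 0.663% of the S29 FPKM and the row named Rpl9 9.37% of the L9 FPKM. Rpl36 held 99.996% of the L36 FPKM and Rps3a 91.5% of the S3a FPKM. The part of splits between rows of 1 protein in these shares was not tested. The row named Rpl30 overlapped controls on this scale through normal 3, at 3.01 per 1000 FPKM of the 89 rows against 2.50 to 3.22 in CIA samples. Between Nampt+ and Nampt++ samples 1 row of Rpl7a and Rps2 were higher without overlap (1.65% of all rows) and Rps21 and Rps3a lower (0.311% of all rows). Rpl17, for L17 at the exit tunnel of the large subunit, was chosen after its values were seen. Per 1000 FPKM of the 89 rows it took 15.9, 16.1, 17.1 and 17.3 in Nampt++ samples, 12.9, 16.1, 16.3 and 16.98 in Nampt+ samples, and 11.2, 11.9 and 11.7 in controls. All 8 CIA samples lay above all 3 controls, which 1 of the 89 rows did on this scale against 0.213% of all rows tested, while 0 of the 89 lay below all controls against 0.0623%. With counts scaled to the ribosomal protein total, a setting added after seeing the data, the log2 fold change was 0.52 ± 0.17 (SE) in Nampt++ samples against controls (unadjusted p = 0.0189, adjusted p = 1.00 in edgeR) and 0.41 ± 0.20 (SE) in Nampt+ samples against controls (unadjusted p = 0.0703), where 1.33% and 0.978% of all rows had an unadjusted p under 0.05. On the scale of all genes it was 0.49 ± 0.22 (SE) and 0.30 ± 0.22 (SE), with unadjusted p values of 0.0603 and 0.207.

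The other genes of the translation machinery were read from lists by role. Of 8 rows for ribosomal components under other names, among them the stalk proteins Rplp0, Rplp1 and Rplp2, 0 had an unadjusted p under 0.05 in any comparison in edgeR, and the median log2 fold changes were -0.05, -0.01 and -0.09. Rplp0 measured 2739 ± 459 FPKM in Nampt++ samples, 2580 ± 788 FPKM in Nampt+ samples and 2751 ± 884 FPKM in controls. Of 12 other genes with TOP mRNAs, mostly translation factors, 0 passed, with medians of 0.02, -0.03 and -0.02, and Eef1a1, the elongation factor that brings tRNA to the ribosome, differed by -0.01, 0.01 and -0.01 on the log2 scale. Of 25 genes of ribosome biogenesis, 0 passed, with medians of 0.06, -0.05 and -0.01. Of 11 genes of the mTOR control of translation, 0 passed, with medians of -0.03, 0.06 and 0.01, and with Mtor at 0.24 ± 0.15 (SE) and Larp1 at -0.08 ± 0.26 (SE) between Nampt+ and Nampt++ samples. Mitochondrial ribosomal proteins, which serve the separate ribosome of the mitochondrion, gave 1 of 75 rows below an unadjusted p of 0.05 in each of 2 comparisons. Mrps18b was lower in Nampt+ than in Nampt++ samples (log2 fold change of -0.43, unadjusted p = 0.0438), and Mrps35 was higher in Nampt++ samples than in controls (0.61, unadjusted p = 0.0261). Medians of the mitochondrial list were -0.10, 0.08 and -0.03, and no list held a row with an adjusted p under 0.05.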

How the data were processed

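WBC RNA of 11 samples (4 Nampt++, 4 Nampt+, 3 normal) was sequenced by the authors as poly(A) libraries with paired reads of 150 bases. The submitters' processing notes name cutadapt 1.9, HISAT2 2.0.4 and StringTie 1.3.4. The genome build and the handling of multi-mapped reads are not given in the sources used here. The deposited table holds raw counts per gene, and FPKM values that the authors scaled by gene length and library total, with 0.0001 written where the FPKM was 0. Its columns of the authors' own comparisons (fold changes and p-values) were not used.

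Counts of the 11242 rows with a mean of at least 1 FPKM over the 11 samples were tested with edgeR 4.0.16 (TMM, quasi-likelihood, only the groups compared) in R 4.3.3, with Benjamini-Hochberg adjustment over all of them. Rows were called where the unadjusted p was under 0.05 and one group's mean FPKM was over 2 times, or under 0.5 of, the other's. DESeq2 1.42.0, limma 3.58.1 on log2(FPKM + 1), other scalings and filters, and leaving out each sample were alternatives. Only the plain fits of edgeR, DESeq2 and limma were tested on simulated data. For sums and single rows, log2(FPKM + 1) was tested by exact permutation over samples (two-sided), whose smallest p is 0.0286 for 4 against 4 and 0.0571 for 4 against 3 samples, so the latter cannot pass 0.05. The pairing of CIA samples by rat was not used in the main edgeR fits or in the permutations of sums and single rows. Totals of 65340027 to 85819418 counts per sample leave the spread between samples as the main error, and p-values measure only that spread.

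The sample labels carry the same numbers in both CIA groups, and the paper states that the same rats were sampled at both statuses. Which samples belong to 1 rat was read from these numbers. Deviations from the group means correlated at -0.19, -0.20, 0.19 and 0.12 within rats 1 to 4. Between samples of different numbers they correlated at -0.25 to 0.47, so samples of the same number were no more alike by this measure.

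Genes were named by these rules: Rpl30, Rpl9 and Rpl15, the 6 rows of highest mean FPKM, up to 4 rows with the highest and 4 with the lowest fold change among those with an unadjusted p under 0.05 in each comparison, and sums of rows sharing a Description. The members, lists (other ribosomal components, TOP genes, biogenesis, mTOR control, mitochondrial ribosome, and markers of T, B and NK cells, neutrophils, monocytes, erythroid cells and platelets) and rules were chosen with earlier results of these data known. Eif3e, Eif3h, Cd79a and Ccr2 were not found by name. Some genes that these rules name are not reported here. Start regions came from RefSeq (GRCr8).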

Additional observations from a re-analysis of the deposited data

Results flagged for a closer look

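Among 38 groups of 4 samples looked at, 3 held a sample far from the others by Dixon's criterion, which chance alone gives in about 1 of 20 groups. Rpl10l measured 4.36 FPKM in Nampt++ rat 4, against 0.157 to 0.681 FPKM in the other Nampt++ samples. Rps27l measured 7.64 FPKM in Nampt+ rat 2, against 14.7 to 15.1 FPKM in the other Nampt+ samples, and that sample also held the lowest ribosomal protein share of all 11. The summed Rps27a FPKM was 2909 in Nampt++ rat 4, against 2090 to 2205 in the other Nampt++ samples, and that sample held the highest ribosomal protein share of counts in its group (7.10%).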

How the results depend on the processing

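Of 288 values recomputed under an alternative, 254 were rated as kept and 34 were not. For single genes this meant the same direction and the same side of an unadjusted p of 0.05. Numbers of called rows had to be equal or similar, and medians and shares had to move by less than an SD between samples. Medians that changed sign, such as 0.08 for Nampt++ samples against controls without normal 3, were therefore rated as kept. The number of ribosomal protein rows called between Nampt+ and Nampt++ samples was 0, and became 1 with DESeq2 (Rpl35al1) and 0 to 2 when 1 sample was left out (2 without Nampt++ rat 4, Rpl10l and Rpl35al1). In Nampt++ samples against controls it was 1, and became 2 with DESeq2 (Rpl30 and Rpl35al1), 2 with limma on log2(FPKM + 0.1) or log2(FPKM + 1), and 0 to 2 when 1 sample was left out. Without normal 1 it was 0, and without Nampt++ rat 3 Rpl9 joined Rpl30 at a log2 fold change of -1.70. With the rows of a protein summed it was 0 in both comparisons with controls, also when scaled to the ribosomal protein total. Nampt+ samples against controls gave 2 to 3 without 1 sample. Rpl9 between Nampt+ and Nampt++ samples turned to 0.014 with limma and to 0.12 with the replicate block, and ranged from -0.54 to 0.37 without 1 sample. Rpl15 turned to 0.044 on the ribosomal protein scale and to 0.0060 with upper quartile normalization, with -0.14 to 0.079 without 1 sample, and in Nampt++ samples against controls it ranged from -0.19 to 0.029. The ribosomal protein share was 7.34% without haemoglobin genes in Nampt++ samples, and of summed FPKM it was 9.05%, 7.94% and 8.61% in Nampt++, Nampt+ and normal samples. The causes were not tested. With the rats as a replicate block, 58 genes were called against 71, and 0 of them were ribosomal protein rows. The median of the 89 rows was -0.08, and Rps27l and Rpl7l1 remained the only ones of the 89 with an unadjusted p under 0.05 in edgeR. With the block on the ribosomal protein scale, Rps27l and Rpl7l1 no longer had an unadjusted p under 0.05. Medians of the 89 rows were -0.02, -0.00 and 0.00 in the 3 comparisons on the ribosomal protein scale, on which all genes had medians of 0.05, 0.04 and 0.10. Counts of all genes called moved from 71, 76 and 57 to 295, 306 and 261 with no filter on low values, to 19, 26 and 15 at a mean of at least 10 FPKM, to 105, 122 and 74 with DESeq2, and to 88, 144 and 78 with limma. Leaving out normal 2 gave 457 calls in Nampt++ samples against controls and 139 in Nampt+ samples against controls. Scaling to the ribosomal protein total and summing by protein were chosen after seeing the data.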
